A study of Mus musculus with 2 samples.

Results

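The genes described here are 9 genes of lipoprotein and cholesterol transport, *Apoe*, *Pltp*, *Enpp2*, *Abca1*, *Abcg1*, *Scarb1*, *Vldlr*, *Lrp1* and *Lpl*. They were chosen by name, with earlier results of these data known, and all 9 were found by symbol among the 32285 genes counted in both libraries. Their unique molecular identifiers (UMIs, tags that each mark 1 captured RNA molecule) were summed over the cells of each type in each library and are given as CPM, counts scaled to the same total of UMIs in every group of cells (per 1000000 UMIs). RPE cells were cells with at least 10 UMIs of *Rpe65*, which encodes the isomerohydrolase of the visual cycle. They were also split into Serpina3n-low cells (below 1000 CPM of *Serpina3n*) and Serpina3n-high cells (at or above it). *Serpina3n* encodes a secreted serine protease inhibitor known as an acute-phase and injury-response gene.

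The cells came from the RPE, choroid and sclera of C57BL/6J mice aged 3 months, dissociated after the retina had been taken off, and 5′ single-cell libraries were made on the 10x Genomics platform. Control eyes had received PBS under the retina. Dox eyes had received 1 µl of doxorubicin, a drug that damages DNA, at 100 ng/µl, and both were collected 7 days afterwards. Each library pooled 10 eyes of 5 mice, so that there was 1 library per group and no replicate: no test between groups could be made, and every interval below covers counting error only, at 95%. An injection under the retina reaches only some of the RPE of an eye, so that cells the drug did and did not reach are pooled in the Dox library.

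The RPE faces the choriocapillaris and takes up lipoproteins from the blood through endocytic receptors and through the HDL receptor SR-BI. It also ingests the lipid-rich tips of photoreceptors every day, and it returns cholesterol to lipoproteins with ABC transporters and with apolipoproteins of its own, of which apolipoprotein E is the best known. Lipid-rich deposits under the RPE, which contain apolipoprotein E, are a hallmark of age-related macular degeneration.

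After filtering, 20180 Control cells and 15426 Dox cells were left, with a median of 4495 and 4995 UMIs, and 441 barcodes occurred in both libraries. There were 1526 RPE cells in the Control library (median 16013.5 UMIs) and 1630 in the Dox library (median 18115.5 UMIs). Of these, 15 Control cells (0.983%, interval 0.551 to 1.62) and 208 Dox cells (12.8%, interval 11.2 to 14.5) were Serpina3n-high. The division is a threshold on a continuous range: 27 Control and 94 Dox RPE cells lay between 500 and 2000 CPM, the highest value below it was 997 (Control) and 994 CPM (Dox), and the lowest at or above it was 1061 and 1008 CPM. Serpina3n-high cells were the deeper ones, with a median of 33954 UMIs in Control and 28244 in Dox against 15957 and 16608 in Serpina3n-low cells. Beside *Rpe65*, which chose the cells, all 11 other RPE markers were found in each of the 4 groups of RPE cells. Summed without *Rpe65*, they made up 101166 (Control) and 104836 CPM (Dox) in Serpina3n-low cells, and 83571 and 89508 CPM in Serpina3n-high cells. The 12 fibroblast markers, as a measure of RNA from other cells, summed to 1671 (Control) and 1142 CPM (Dox) in Serpina3n-low cells, and to 1681 and 395 CPM in Serpina3n-high cells. The 10 melanocyte markers summed to more, 2902 and 1903 CPM in Serpina3n-low cells and 4044 and 1965 CPM in Serpina3n-high cells. Smooth muscle or pericyte markers lay between 253 and 486 CPM over the 4 groups, macrophage markers between 99.5 and 422 CPM, Schwann markers between 119 and 225 CPM and endothelial markers between 34.3 and 81.2 CPM, each lowest in Dox Serpina3n-high cells. The NK or T cell list reached 23.4 CPM at most and the erythroid and rod photoreceptor lists 2.42 CPM, and 11 of the 12 NK or T cell markers were at 0 in Dox Serpina3n-high cells. The part of this RNA in the members' values was not tested, except as given below for fibroblast markers.

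On the mouse assembly GRCm38 (GENCODE M21), the secreted factors lie at chr7:19696109-19699188 (*Apoe*), chr2:164839518-164857711 (*Pltp*), chr15:54838901-54952892 (*Enpp2*) and chr8:68880491-68907448 (*Lpl*). The exporters lie at chr4:53030787-53159895 (*Abca1*) and chr17:31057675-31117988 (*Abcg1*), and the receptors at chr5:125277087-125341094 (*Scarb1*), chr19:27216484-27254231 (*Vldlr*) and chr10:127538161-127621148 (*Lrp1*). RefSeq promoter windows (GRCm38.p6, 250 bases before to 50 after a start) were at hand for 5 of the 9 genes. The windows of *Abca1* and *Pltp* are shown because these genes differed in opposite directions between Serpina3n-high and Serpina3n-low RPE cells. Both are on the minus strand, at chr4:53159846-53160145 and chr2:164857659-164857958, and are written 5′ to 3′, with motif matches in capitals.
*Abca1* promoter: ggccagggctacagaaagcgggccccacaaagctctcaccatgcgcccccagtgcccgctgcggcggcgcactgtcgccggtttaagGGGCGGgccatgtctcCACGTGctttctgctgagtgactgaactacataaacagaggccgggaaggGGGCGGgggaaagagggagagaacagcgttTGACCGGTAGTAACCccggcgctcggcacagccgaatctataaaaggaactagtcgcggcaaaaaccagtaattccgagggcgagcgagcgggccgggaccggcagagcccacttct
*Pltp* promoter: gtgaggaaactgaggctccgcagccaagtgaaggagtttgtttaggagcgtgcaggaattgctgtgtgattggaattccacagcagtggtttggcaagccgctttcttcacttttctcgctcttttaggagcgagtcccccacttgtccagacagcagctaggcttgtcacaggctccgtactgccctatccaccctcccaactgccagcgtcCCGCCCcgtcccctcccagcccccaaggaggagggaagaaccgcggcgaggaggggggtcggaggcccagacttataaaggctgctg
In the *Abca1* window the capitals mark, in order, a GC box (GGGCGG), an E-box (CACGTG), another GC box, and on the other strand the half-sites GGTTA and GGTCA with 5 bases between, the form of the LXR response element (a direct repeat with 4 bases between its half-sites, DR4) known in this promoter. That last pattern was chosen after the window had been seen, and 16 of all 32851 windows (0.0487%) hold it on either strand. The stricter DR4, with half-sites AGGTCA or GGGTCA, was in 14 windows (0.0426%) and in none of the members' windows. The E-box was in 7.15% of all windows and the GC box in 35.7%. The *Pltp* window holds 1 GC box, on the other strand, as do the *Lrp1* window and 1 of the *Vldlr* windows, and none of the *Apoe* windows holds any of these motifs. The core of the sterol regulatory element, found in 1.24% of all windows, was in none of the members' windows. A match describes letters in a window, not binding.

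Set beside the named clusters outside the RPE, *Pltp*, *Enpp2* and *Vldlr* had their highest level in RPE cells in both libraries. How many of all genes do the same is not given here, so that nothing is said of the members as a set. The other cell types were the cells below the *Rpe65* limit in each cluster of a clustering formed without the 9 genes, *Serpina3n* and the pathway lists, and they are called by their markers and their leading gene. *Enpp2* encodes autotaxin, the secreted enzyme that makes lysophosphatidic acid. It stood at 2244 CPM in Control RPE cells and 2173 CPM in Dox RPE cells. Outside RPE cells, named types held between 109.9 and 159.9 CPM in Control and between 135 and 271 CPM in Dox. Levels were higher in the unnamed clusters led by *Hbb-bs* (393 CPM in Control, 791 CPM in Dox) and *Snhg7os* (318 and 473 CPM). Melanocyte-like cells, taken from a finer clustering, had 279 and 438 CPM. *Rpe65* RNA was also found in these groups, and its share of the RPE level is set beside that of *Enpp2*. The part of RPE RNA in the *Enpp2* levels was not tested. In NK or T-like cells *Enpp2* was at 5.31% (interval 4.66 to 6.02) of its RPE level in Control and *Rpe65* at 5.35% (4.91 to 5.83). In Dox the shares were 6.24% and 6.18%. In smooth muscle or pericyte-like cells the *Enpp2* share was higher than the *Rpe65* share, 7.13% (6.63 to 7.65) against 4.40% (4.14 to 4.68) in Control and 9.51% against 6.05% in Dox. In Control it was also higher in endothelial-like cells (6.94% against 4.12%), the macrophage-like cluster (4.90% against 4.28%) and each fibroblast-like cluster (led by *Myoc*, 5.05% against 3.95%). In Control Schwann-like cells it was the lower one, 6.85% against 8.58%. In Control melanocyte-like cells the shares were 12.4% (11.7 to 13.1) for *Enpp2* and 5.92% (5.62 to 6.24) for *Rpe65*. Dox melanocyte-like cells had 438 CPM of *Enpp2* and 674 CPM of *Rpe65*, where Dox RPE cells had 2173 and 4867 CPM. The *Rpe65* shares here and below are lowered by the limit, which took out cells with at least 10 *Rpe65* UMIs. In the smooth muscle or pericyte-like cluster these were 4 Control and 5 Dox cells. *Enpp2* had no such limit, so that the 2 shares are not fully alike. With every cell thinned to 1000 UMIs, 73.9% of Control and 71.4% of Dox RPE cells had an *Enpp2* UMI, against 12.7% and 17.1% of NK or T-like cells.

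*Pltp*, the phospholipid transfer protein that moves phospholipids between lipoproteins, stood at 1643 and 1529 CPM in Control and Dox RPE cells. Endothelial-like cells came next at 953 and 944 CPM, which was 58.0% (55.2 to 61.0) and 61.7% of the RPE level where *Rpe65* was at 4.12% and 6.97%. The other types lay between 62.9 and 311 CPM in Control and between 135 and 337 CPM in Dox. *Vldlr*, a receptor for lipoproteins that carry apolipoprotein E, stood at 82.6 and 87.0 CPM in RPE cells. Smooth muscle or pericyte-like cells had 32.3 and 33.3 CPM, and Schwann-like cells, only 48 and 32 in number, 48.9 and 26.2 CPM, with intervals that reached 100.7 and 76.7 CPM. The other named clusters had at most 11.9 CPM.

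*Apoe* encodes the apolipoprotein that is a ligand of LRP1 and VLDLR. It was highest in the cluster of macrophage or other antigen-presenting cell-like cells, at 9903 (Control) and 7385 CPM (Dox). Within that cluster, cells with at least 1000 CPM of the complement genes *C1qa*, *C1qb* and *C1qc* had 21119 CPM (478 Control cells) and 17922 CPM (237 Dox cells), while the cells below it had 1409.9 and 1302 CPM. RPE cells followed with 4880.4 and 5203 CPM. Schwann-like cells had 3667 and 4092 CPM, the fibroblast-like cells led by *Cxcl10* 2376 and 2587 CPM, and smooth muscle or pericyte-like cells the least, 784 and 645 CPM. Melanocyte-like cells, which were part of an unnamed cluster here and were taken from a finer clustering, had 3399 and 3773 CPM.

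The exporters and receptors showed other orders. Among RPE cells and the named clusters outside the RPE, *Abca1*, which loads cholesterol onto apolipoprotein A-I, was highest in the macrophage-like cluster. That cluster had 81.7 (Control) and 71.0 CPM (Dox), and its C1q-high cells 142.9 and 137.8 CPM. RPE cells had 39.3 and 47.0 CPM. The unnamed cluster led by *Snhg7os* had still higher *Abca1*, 185 and 227 CPM, in cells with a median of 1884 and 1886.5 UMIs. Cells of the RPE-like cluster below the *Rpe65* limit were also above the macrophage-like cluster, with 112 (Control, 58 UMIs) and 109 CPM (Dox, 61 UMIs). In Dox only, the unnamed cluster led by *Hbb-bs* passed it too (77.8 CPM, Control 62.1 CPM). So did erythroid-like cells of the finer clustering (92.0 CPM, Control 58.0 CPM). *Abcg1*, the exporter to HDL, was close to absent from RPE cells, with 19 UMIs (0.722 CPM) in Control and 18 UMIs (0.577 CPM) in Dox. It had 41.2 CPM in Control endothelial-like cells, 18.3 CPM in Control NK or T-like cells and 25.6 CPM in the Dox macrophage-like cluster.

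*Scarb1*, which encodes SR-BI and takes cholesteryl esters and carotenoids up from HDL, was highest in endothelial-like cells, at 222 and 255 CPM. RPE cells were second in both libraries, at 63.8 and 69.1 CPM. *Lrp1*, a large endocytic receptor, was highest in the fibroblast-like cells led by *Dpt* (583 and 628 CPM), then in the other fibroblast-like clusters (388 to 409.9 CPM), and RPE cells had 271 and 259 CPM. *Lpl*, the lipase that frees fatty acids from lipoprotein triglycerides, was highest in smooth muscle or pericyte-like cells, at 281 and 353 CPM. C1q-high cells of the macrophage-like cluster had 146 and 137 CPM of *Lpl*, and RPE cells 2.55 CPM (67 UMIs) and 1.03 CPM (32 UMIs).

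**Figure D1:**
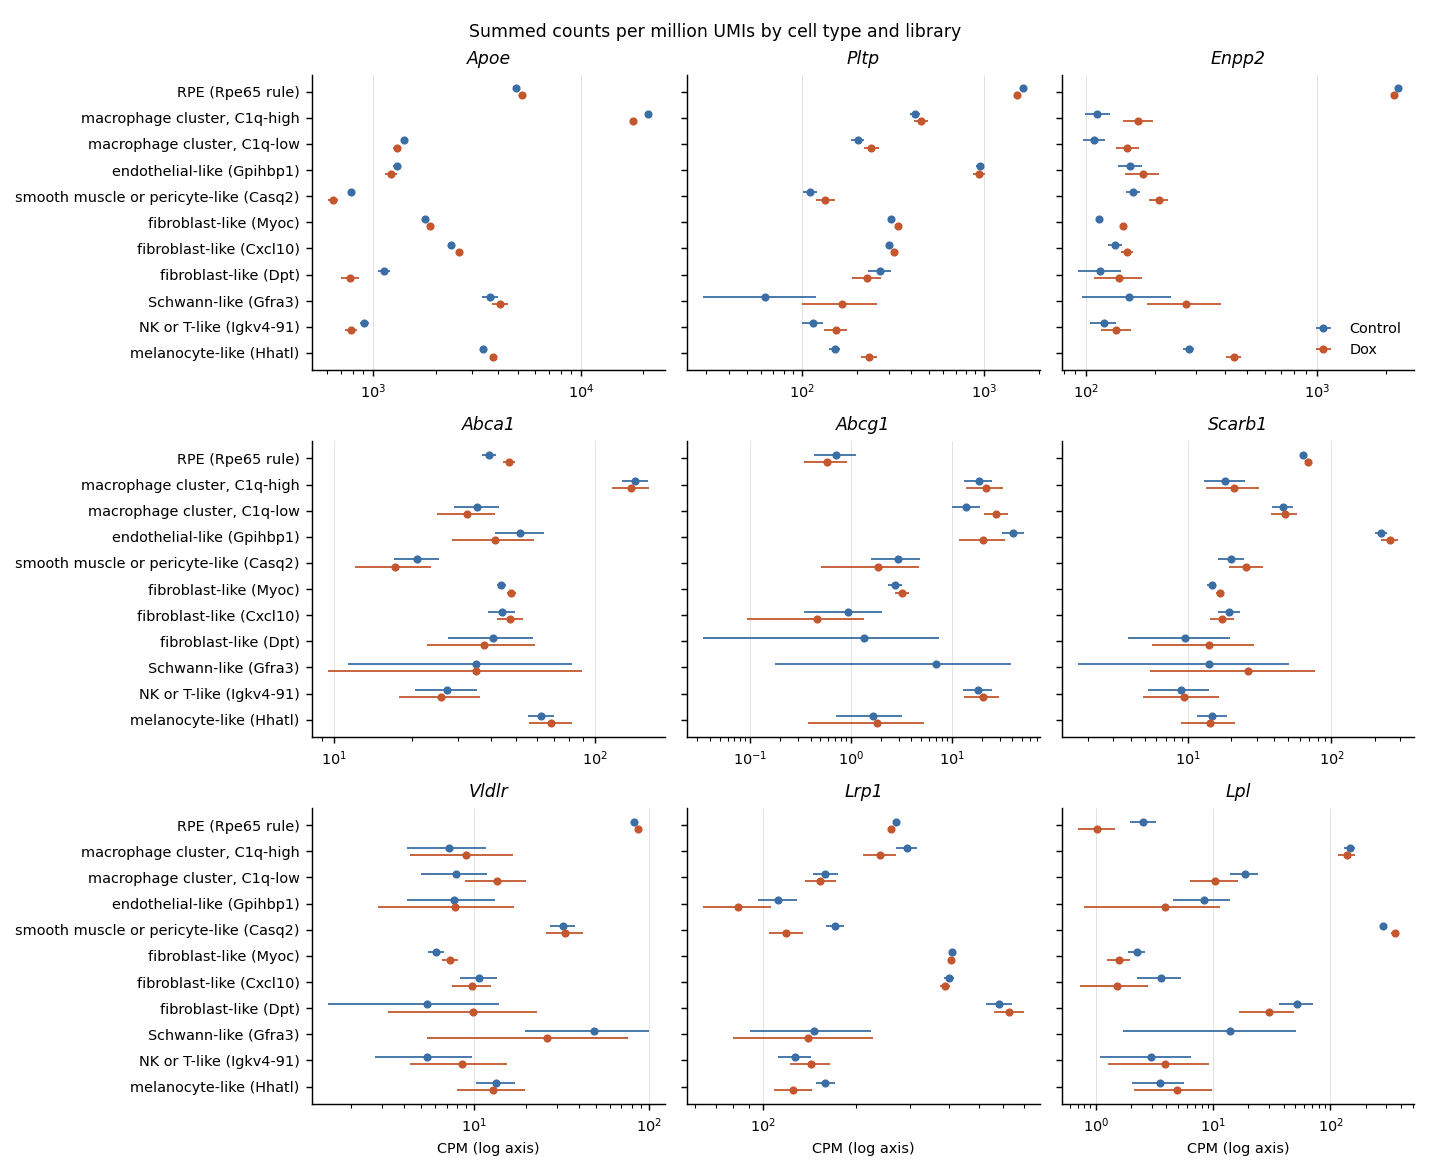
CPM (log axis) of the 9 genes in RPE cells and in the named clusters of the Control (blue) and Dox (orange) libraries, with points for the summed level and bars for the exact Poisson interval. *Enpp2*, *Pltp* and *Vldlr* are farthest to the right in RPE cells, *Apoe* in C1q-high cells of the macrophage cluster, *Scarb1* in endothelial-like cells and *Lpl* in smooth muscle or pericyte-like cells. Groups with no UMI have no point.

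Within the RPE, *Enpp2* differed most between Serpina3n-high and Serpina3n-low cells. It was at 2275 CPM (58828 UMIs) in Control Serpina3n-low cells, 2567 CPM (65805 UMIs) in Dox Serpina3n-low cells, 501 CPM (227 UMIs) in Control Serpina3n-high cells and 358 CPM (1992 UMIs) in Dox Serpina3n-high cells. Both Serpina3n-high groups were below both Serpina3n-low groups. The level was 7.17-fold lower in Serpina3n-high cells of the Dox library (log2 ratio -2.84, interval -2.91 to -2.78) and 4.54-fold lower in those of the Control library (-2.18, interval -2.38 to -1.99). Among the 10432 genes with at least 100 UMIs over both groups of Dox cells it ranked 28 from the lowest ratio, and among 10202 genes in Control 134. Cell by cell, the middle 50% of Dox Serpina3n-high cells had 135 to 498 CPM of *Enpp2* around a median of 246 CPM, and that of Dox Serpina3n-low cells 1103 to 3357 CPM around 2168 CPM. Thinned to 5000 UMIs, 65.1% (interval 58.0 to 71.8) of 195 Dox Serpina3n-high cells had an *Enpp2* UMI against 95.9% of 1233 Serpina3n-low cells.

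*Pltp* was lower in Serpina3n-high cells as well. It stood at 1658 (Control) and 1666 CPM (Dox) in Serpina3n-low cells, and at 766 CPM (347 UMIs) and 900.3 CPM (5011 UMIs) in Serpina3n-high cells. The Serpina3n-low groups of the libraries were nearly the same, and the Serpina3n-high groups were 2.16-fold lower in Control (log2 ratio -1.11, interval -1.27 to -0.96) and 1.85-fold lower in Dox (-0.89, interval -0.93 to -0.85). *Apoe* went from 4905 CPM to 3459 CPM in Control and from 5553 CPM to 3587 CPM in Dox. These log2 ratios were -0.50 (interval -0.58 to -0.43) in Control and -0.63 (interval -0.65 to -0.61) in Dox, of which the latter passed 1.5-fold. The Dox ratio fell short of 1.5-fold with every cell thinned to 5000 UMIs, and also as a mean of the cells' own CPM. *Apoe* was lower in both Serpina3n-high groups than in both Serpina3n-low groups, and by less than *Enpp2* and *Pltp*.

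Of the receptors, *Scarb1* had 64.3 (Control) and 75.2 CPM (Dox) in Serpina3n-low cells, and 33.1 CPM (15 UMIs) and 41.0 CPM (228 UMIs) in Serpina3n-high cells. This was a log2 ratio of -0.96 (interval -1.80 to -0.23) in Control and -0.88 (interval -1.08 to -0.68) in Dox. *Vldlr* had 83.2 and 92.2 CPM in Serpina3n-low cells and 48.6 CPM (22 UMIs) and 62.9 CPM (350 UMIs) in Serpina3n-high cells. Its log2 ratio was -0.78 (interval -1.45 to -0.17) in Control, past 1.5-fold, and -0.55 (interval -0.72 to -0.39) in Dox, short of it, and several other choices of RPE cells brought it past 1.5-fold in Dox (-0.60 without the highest doublet scores). *Lrp1*, at 272 and 273 CPM in Serpina3n-low cells against 214 and 199 CPM, did not reach 1.5-fold in either library, with log2 ratios of -0.34 (interval -0.65 to -0.05) and -0.45 (interval -0.55 to -0.36).

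*Abca1* was the only one of the 7 members with at least 100 UMIs that was higher in Serpina3n-high cells. It had 38.9 (Control) and 41.1 CPM (Dox) in Serpina3n-low cells, and 64.0 CPM (29 UMIs) and 74.0 CPM (412 UMIs) in Serpina3n-high cells. The log2 ratio was 0.72 (interval 0.13 to 1.25) in Control and 0.85 (interval 0.68 to 1.02) in Dox. This difference was less steady than the others. With every cell at 5000 UMIs it was 0.57 in Dox, and -0.54 in Control, where 14 Serpina3n-high cells were left, and as a mean of the cells' own CPM it was 0.53 in Dox and 0.46 in Control, all short of 1.5-fold upwards. A *Serpina3n* threshold of 500 CPM also left it short in Control, at 0.52.

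*Abcg1* and *Lpl* were too rare in RPE cells to be compared. *Abcg1* had 1 UMI in Control and 7 UMIs in Dox Serpina3n-high cells. *Lpl* had 0 UMIs in the 15 Control Serpina3n-high cells, where 3 UMIs would have been 6.63 CPM, more than the 2.59 CPM of Serpina3n-low cells, so that a difference was not detectable at this depth.

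In all, 5 members passed 1.5-fold between Serpina3n-high and Serpina3n-low cells in each library, 4 lower and 1 higher, among the 7 with at least 100 UMIs. Of all genes with as many UMIs, 17.7% were lower and 4.1% higher by 1.5-fold or more in Dox, and 25.5% were lower and 9.93% higher in Control, where the Serpina3n-high cells were so few. The median log2 ratio of the members was -0.63 in Dox and -0.78 in Control, beside -0.17 and -0.13 for all genes. Relative to that median of all genes, *Enpp2* was at -2.67, *Pltp* at -0.72, *Apoe* at -0.46 and *Abca1* at 1.02 in Dox, so that *Apoe* was then short of 1.5-fold. *Rpe65*, which chose the cells, went from 5008 to 2544 CPM in Control and from 5499 to 1954 CPM in Dox. Without *Rpe65*, 10 RPE markers had at least 100 UMIs, of which 10 were lower in Dox Serpina3n-high cells (2 past 1.5-fold, median -0.37) and 8 in Control (5 past 1.5-fold, median -0.61). The part of these shifts in the members' values was not tested.

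**Figure D2:**
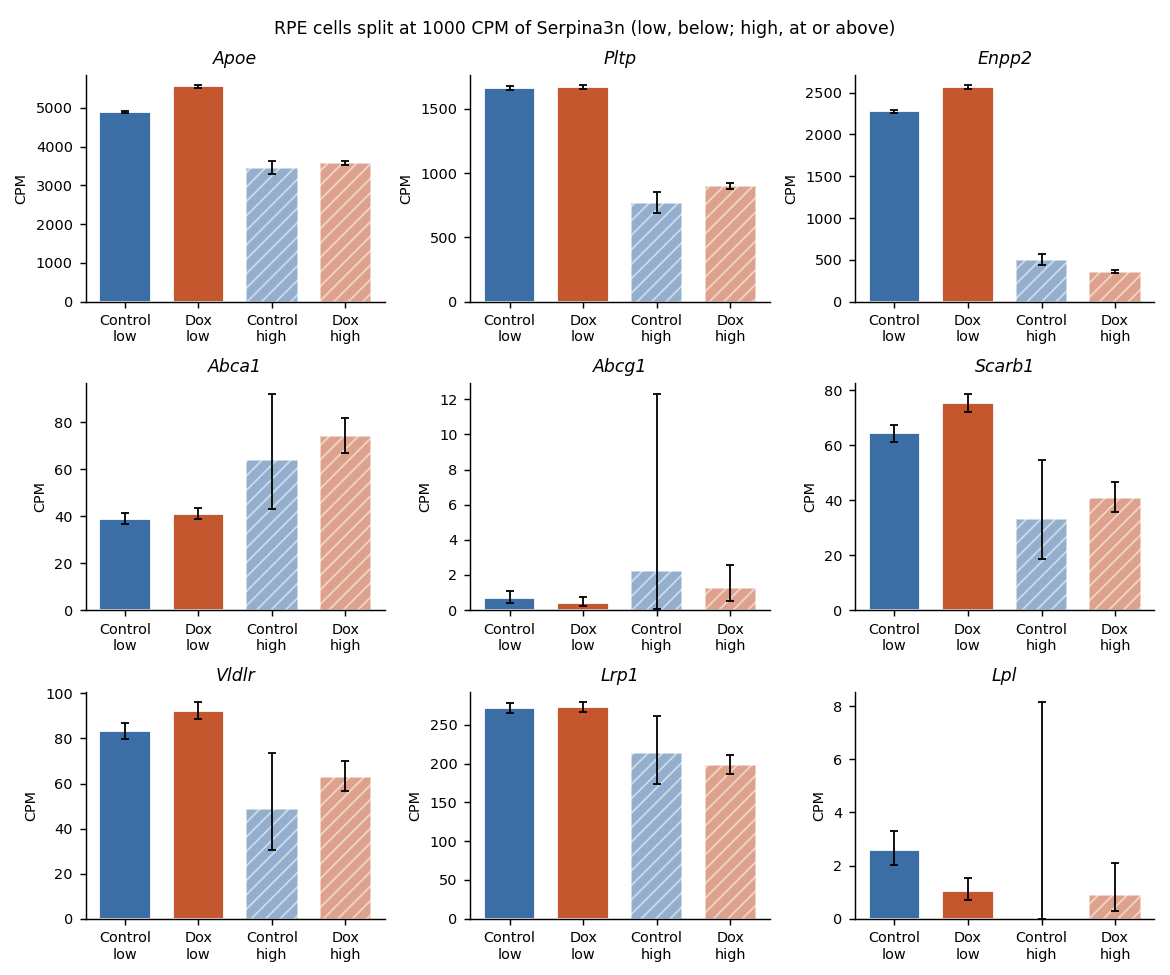
CPM of the 9 genes in Serpina3n-low (plain bars) and Serpina3n-high (hatched bars) RPE cells of the Control (blue) and Dox (orange) libraries, with exact Poisson intervals. *Enpp2*, *Pltp*, *Apoe*, *Scarb1*, *Vldlr* and *Lrp1* have lower bars in both Serpina3n-high groups and *Abca1* higher ones, with wide intervals for the 15 Control cells.

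**Figure D3:**
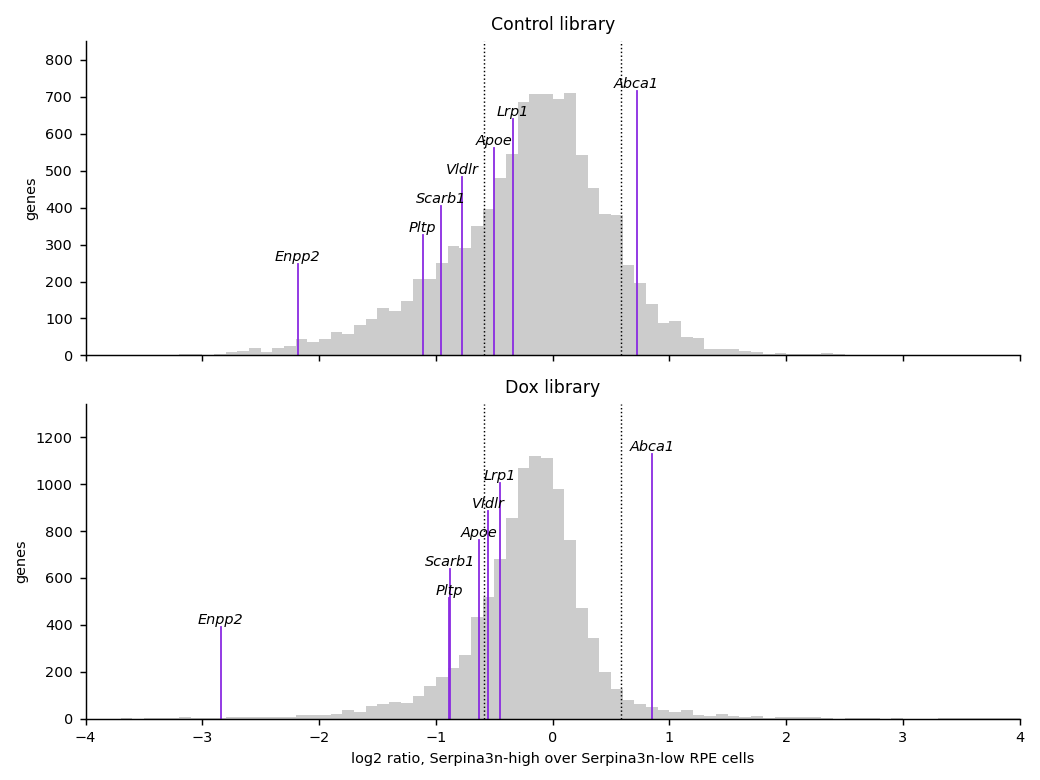
Number of genes (vertical axis) by log2 ratio of Serpina3n-high over Serpina3n-low RPE cells (horizontal axis, bins of 0.1) in the Control and Dox libraries, for genes with at least 100 UMIs. Purple lines of arbitrary height mark the 7 members with as many UMIs and dotted lines 1.5-fold: *Enpp2* is far out on the left side of both distributions and *Abca1* on the right side.

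Fibroblast RNA did not move alike in the libraries: the fibroblast markers were at 395 CPM in Dox Serpina3n-high cells and at 1681 CPM in those of Control. With RPE cells kept only when fibroblast markers made up under 0.2% of their UMIs, *Enpp2* was at a log2 ratio of -2.51 in Control, *Apoe* at -0.68 in Dox and *Pltp* at -0.94 in Dox, and *Enpp2*, *Pltp*, *Abca1*, *Scarb1* and *Vldlr* passed 1.5-fold in both libraries, with *Apoe* beside them in Dox. Of the RPE cells, 1317 in Control and 1392 in Dox were also in the cluster of RPE-like cells, among them 13 and 196 of the Serpina3n-high cells. With only these cells, the same 5 genes passed 1.5-fold in Control, and in Dox *Vldlr* (-0.59) passed it beside the 5 found with all RPE cells. By doublet score, 4 of the 15 Control and 6 of the 208 Dox Serpina3n-high cells were among the highest. Of all RPE cells, 333 of 1526 in Control and 189 of 1630 in Dox were among them. Without the highest scores the *Enpp2* ratio was -2.55 in Control.

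Finer steps of *Serpina3n* gave a graded picture for *Enpp2*. In Dox, cells with no *Serpina3n* UMI (780 cells) had 2815 CPM of *Enpp2*, those above 0 and under 100 CPM of *Serpina3n* (327 cells) 2662 CPM, and those at 100 to under 300 CPM (212 cells) 1894 CPM. From there it was 744 CPM at 300 to under 1000 CPM (103 cells), 506 CPM at 1000 to under 3000 CPM (64 cells), and 308 CPM at 3000 CPM or more (144 cells). Each step was lower than the one before. Control cells went from 2413 CPM (1294 cells) through 2058, 1257 and 851 CPM, the last over 36 cells, and the final steps, of 9 and 6 cells, had 456 and 579 CPM. The lower *Enpp2* began below the threshold of 1000 CPM, in cells counted as Serpina3n-low, and in both libraries. *Pltp* in Dox went from 1729 CPM with no *Serpina3n* through 1769.85, 1286, 1088 and 979 CPM to 874 CPM. *Abca1* in Dox stood at 37.5 and 32.3 CPM in the lowest steps and at 70.3, 77.8, 91.9 and 68.0 CPM in the others. Its Control steps were less regular, at 38.4, 34.5, 44.3, 57.9, 41.8 and 102.6 CPM, the final steps from 12 and 17 UMIs. *Rpe65* was also lower with each step from 100 CPM on in Dox, from 5704 CPM just below it to 4227, 3359, 2563 and 1749 CPM. *Lrp1* in Dox was highest at 100 to under 300 CPM, with 375 CPM against 253 CPM in the step before. The steps also differ in depth. In a shallow cell a single *Serpina3n* UMI gives over 100 CPM, so that the step above 0 and under 100 CPM holds deeper cells only. The part of depth in these steps was not tested.

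**Figure D4:**
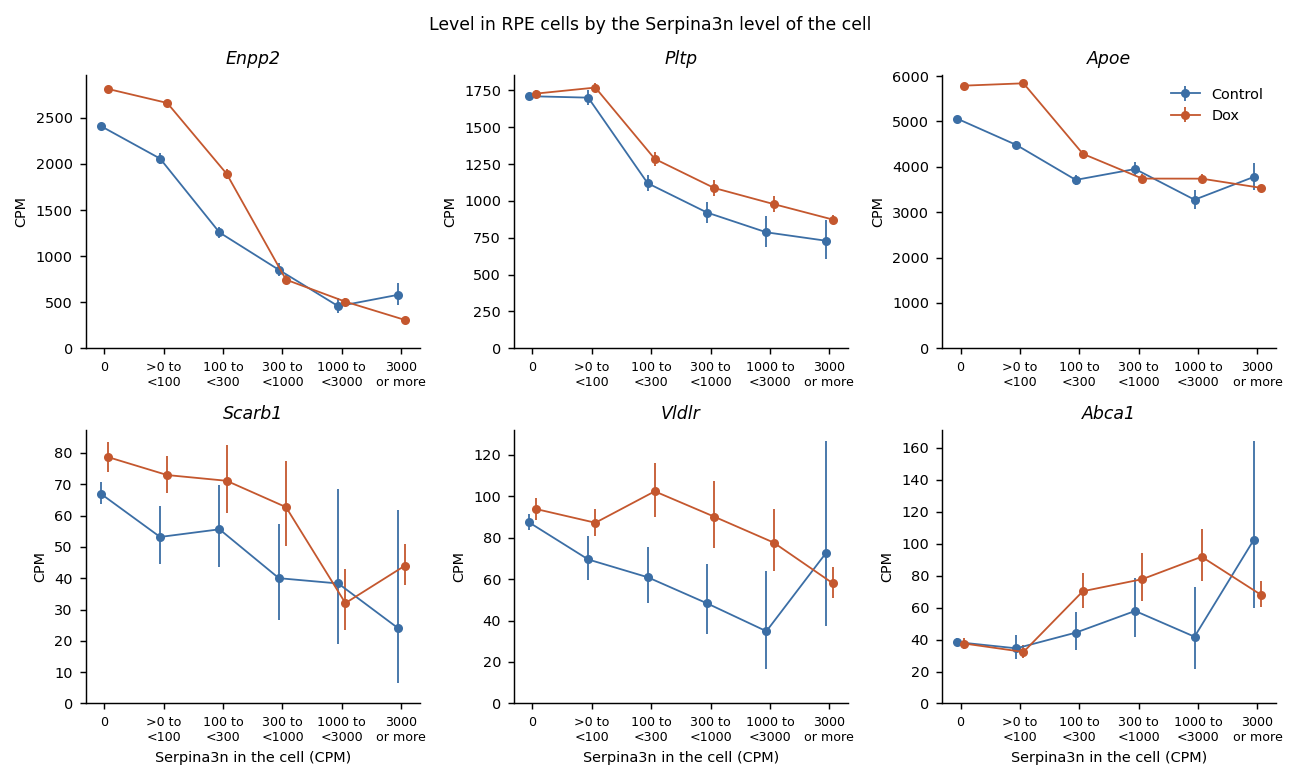
CPM of 6 members (vertical axis, from 0) in RPE cells grouped by their *Serpina3n* level (horizontal axis, CPM), in Control (blue) and Dox (orange), with exact Poisson intervals. *Enpp2* is lower from 100 CPM of *Serpina3n* on, *Pltp* and *Apoe* less steeply, and *Abca1* is higher from there on in Dox. The last Control steps hold 9 and 6 cells.

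Between the libraries, the members differed little. Over all RPE cells, none of the 7 members with at least 100 UMIs passed 1.5-fold, where 1.14% of 11628 genes were higher and 3.29% lower in Dox by that much. The log2 ratios of Dox over Control ran from -0.10 (*Pltp*) to 0.26 (*Abca1*, 47.0 against 39.3 CPM, interval 0.14 to 0.37). Within Serpina3n-low cells, none passed it either (0.514% of all genes higher, 2.41% lower), and all 7 ratios were above 0 (those of *Lrp1*, *Pltp* and *Abca1* not under every alternative), from 0.00 (*Lrp1*) and 0.01 (*Pltp*) to 0.17 (*Enpp2*), 0.18 (*Apoe*) and 0.23 (*Scarb1*, interval 0.13 to 0.32). The median of all genes was 0.01 there. Of 11475 genes, 47.5% had a ratio at or below that of *Lrp1*, 86.9% at or below that of *Apoe* and 91.5% at or below that of *Scarb1*. *Rpe65*, which chose the cells, was at 0.13, and of 10 other RPE markers 8 were higher and 2 lower (median 0.06). *Enpp2* thus had a ratio of -0.05 over all RPE cells and of 0.17 within Serpina3n-low cells. Between the Serpina3n-high cells of the libraries, none passed 1.5-fold (12.7% of 5425 genes higher, 7.71% lower), with *Enpp2* lowest at -0.49 (interval -0.69 to -0.28). These cells differed in *Serpina3n* itself, 2880 CPM in Control against 6343 CPM in Dox. Over all RPE cells *Lpl* had 67 UMIs in Control and 32 in Dox, too few to be called, a log2 ratio of -1.31 (interval -1.97 to -0.68).

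In the 8 named clusters outside the RPE, members had at least 100 UMIs over both libraries in 47 cases, of which 1 was higher in Dox by 1.5-fold and 0 lower. Over all genes with as many UMIs, 1.51% of such cases were higher and 2.7% lower, so that the members were near the level of all genes. The 1 case was *Abcg1* in the macrophage-like cluster (where 1.55% of all genes were higher), 25.6 CPM (77 UMIs) in Dox against 16.03 CPM (82 UMIs) in Control, a log2 ratio of 0.67 (interval 0.21 to 1.14). Split by C1q, *Abcg1* had under 100 UMIs in each part and was at 0.23 (interval -0.56 to 0.99) in C1q-high cells and 0.98 (interval 0.36 to 1.60) in C1q-low cells. *Apoe* in that cluster was at -0.42, and at -0.24 and -0.11 in its C1q-high and C1q-low cells. In the C1q-high cells *Enpp2* was at 0.59 (169 against 112 CPM), just past 1.5-fold, and *Rpe65* RNA at 0.42. Of all genes in those cells, 2.13% were higher by 1.5-fold. *Abcg1* in endothelial-like cells had 16 UMIs in Dox and 69 in Control, too few to be called, a log2 ratio of -0.99 (interval -1.87 to -0.19). In the unnamed cluster led by *Hbb-bs*, *Pltp*, *Enpp2*, *Scarb1* and *Vldlr* were at 0.90 to 1.13 and *Rpe65* at 1.48 (6.4% of all genes were higher by 1.5-fold). The finer clustering parted this cluster into classes whose mix differed: melanocyte-like cells gave 83.4% of its UMIs in Control and 59.7% in Dox, and erythroid-like cells 16.2% and 40.2%. Within erythroid-like cells *Enpp2* was at 0.41, *Pltp* at 0.52, *Vldlr* at 0.51 and *Abca1* at 0.67, with *Rpe65* at 0.65. *Rpe65* itself was high there, 2585 CPM in Dox and 1651 CPM in Control, in cells with a median of 652 and 753.5 UMIs. The RPE list was their next best marker match, at a median log2 level of 3.07 beside 6.10 for the erythroid list. Within melanocyte-like cells *Pltp* and *Enpp2* were at 0.63 and 0.65, with *Rpe65* at 674 against 294 CPM, while *Scarb1* (-0.05) and *Vldlr* (-0.06) had under 100 UMIs. Of all genes, 6.68% were higher by 1.5-fold in erythroid-like cells and 2.84% in melanocyte-like cells. The part of RPE RNA and of the mix in these values was not tested. *Rpe65* RNA was higher in Dox in all 8 named clusters outside the RPE, by 0.18 to 0.73 on the log2 scale. The interval included 0 in NK or T-like cells (0.18, interval -0.01 to 0.37) and in Schwann-like cells (0.30, interval -0.24 to 0.84).

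The rest of the pathway was read from 8 lists of 123 genes, over genes with at least 100 UMIs. The list counts of Serpina3n-high against Serpina3n-low cells have to be read beside those of all genes. In Dox 17.7% of all genes were lower and 4.1% higher by 1.5-fold or more, with a median log2 ratio of -0.17. In Control these were 25.5% and 9.93%, with a median of -0.13. Sterol synthesis genes were mostly lower in Serpina3n-high cells: in Dox, 18 of 20 were lower, 11 of them past 1.5-fold, and 1 was higher past it, with a median log2 ratio of -0.62. *Idi1*, an isomerase of the isoprenoid steps, was at 9.88 against 28.8 CPM (-1.54, interval -1.97 to -1.15). *Msmo1*, a sterol oxidase of the later steps, was at -1.01, and *Ebp*, a sterol isomerase, was higher at 0.65. In Control, 16 of 20 were lower, 10 past 1.5-fold, with a median of -0.63, from few UMIs each (*Msmo1* 13 UMIs). Of the sterol sensing genes, 3 of 6 were past 1.5-fold lower in Dox: *Srebf2*, the transcription factor of sterol synthesis (-0.71), *Insig1*, which holds it back when sterols are ample (-0.69), and *Scap*, its escort (-0.60).

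The list of LXR-linked cholesterol efflux, to which *Abca1* also belongs by function, leaned the other way in Dox: 10 of 14 genes were higher, 4 past 1.5-fold and 0 lower past it, with a median of 0.38. *Srebf1*, the regulator of fatty acid synthesis, had 175 against 88.0 CPM (0.99, interval 0.88 to 1.10), *Nr1h3*, which encodes LXR alpha, 13.1 against 6.75 CPM (0.96, interval 0.54 to 1.36), *Lpcat3*, a lysophospholipid acyltransferase, 66.5 against 38.3 CPM (0.80) and *Scd1*, a stearoyl-CoA desaturase, 15.8 against 7.26 CPM (1.12). By these roles, none of the 4 is itself a cholesterol exporter, despite the name of the list. In Control, 10 of 14 were lower, 2 genes passed 1.5-fold in each direction, and the median was -0.24, so that the list did not lean the same way in the 15 Control cells. *Nr1h3* and *Scd1* were higher past 1.5-fold there too, from 6 and 16 UMIs.

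Other lipoprotein receptors split. In Dox Serpina3n-high cells 5 of 14 were past 1.5-fold lower and 1 higher, with a median of -0.15 beside -0.17 for all genes. *Lrp8*, another apolipoprotein E receptor, was at 51.9 against 113.6 CPM (-1.13, interval -1.31 to -0.95), while *Scarb2*, a lysosomal membrane protein of the same family as *Scarb1*, was at 80.7 against 36.7 CPM (1.13, interval 0.97 to 1.30). *Lrp8* was also lower past 1.5-fold in Control (-0.78). Of the other apolipoproteins and carriers, 3 of 8 were higher past 1.5-fold in Dox and 2 lower, with a median of 0.08. *Clu*, the gene of clusterin (apolipoprotein J), had 14172 against 8901 CPM (0.67), *Rbp4*, the retinol carrier, 19.8 against 4.49 CPM (2.14), *Apoc1* 8.08 against 2.18 CPM (1.89) and *Apod* 19.0 against 87.5 CPM (-2.20). *Clu* and *Rbp4* were higher past 1.5-fold in Control too (0.65 and 2.16). *Apod* followed the fibroblast markers between the groups of the Dox library, and its part in them was not tested.

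Around autotaxin, the list of lysophosphatidic acid receptors and phosphatases had 8 of 9 genes lower in Dox Serpina3n-high cells, 5 past 1.5-fold, with a median of -0.69. *Lpar1*, a receptor of lysophosphatidic acid, had 9.16 against 18.1 CPM (-0.98), *Plpp3*, a phosphatase that degrades it, 27.1 against 53.9 CPM (-0.99) and *Lpcat1*, a lysophosphatidylcholine acyltransferase, 11.9 against 33.0 CPM (-1.48). In Control 5 of 8 were lower and 0 past 1.5-fold, with a median of -0.09. Among the lipases and their regulators 1 of 6 passed 1.5-fold, *Angptl4*, an inhibitor of lipoprotein lipase, with 2.34 CPM (13 UMIs) against 25.4 CPM in Dox (-3.44, interval -4.36 to -2.66), and with 0 UMIs against 28.8 CPM in Control, where the floor of 3 UMIs puts the log2 ratio at -2.12 or below. Of the genes of intracellular cholesterol handling, 2 of 16 were higher past 1.5-fold in Dox and 1 lower, with a median of -0.09. The median of the lipases and their regulators was -0.14, and both medians were near the -0.17 of all genes. *Soat1*, which esterifies cholesterol, had 208 against 118 CPM in Dox (0.82, interval 0.72 to 0.92) and 170.1 against 112 CPM in Control (0.60).

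Between the libraries, few list genes differed over all RPE cells and within Serpina3n-low cells, as did few of all genes. Of all genes, 1.14% were higher and 3.29% lower in Dox by 1.5-fold or more over all RPE cells. Within Serpina3n-low cells these shares were 0.514% and 2.41%. Over all RPE cells *Apod* (75.3 CPM in Dox against 137 CPM in Control) and *Ch25h*, a cholesterol hydroxylase (4.42 against 6.65 CPM), were past 1.5-fold lower and 0 list genes were higher. *Ch25h* was only just past it, at a log2 ratio of -0.59, and is among the leading genes of the fibroblast-like cells led by *Cxcl10*. Fibroblast markers, too, were lower in Dox than in Control Serpina3n-low cells. The part of fibroblast RNA in both genes was not tested. Within Serpina3n-low cells *Apod* was lower (-0.66) and *Stard4*, a sterol carrier, higher (0.72) by that much. The sterol synthesis list had a median of 0.18 within Serpina3n-low cells, with 17 of 20 genes higher in Dox and 0 past 1.5-fold, beside a median of 0.01 for all genes.

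Across 22 groups (RPE cells and 10 clusters, each in both libraries), the genes with the pattern most like each member were taken from 6838 genes by Pearson's r of log2(CPM + 1), a description over groups that share 2 libraries. For *Enpp2* they were *Car14*, *Rgr* and *Slc16a8* (each 0.98), all of them RPE genes. For *Apoe* they were *Psap* (0.88), *Plin2* (0.84) and *Lgmn* (0.82), for *Pltp* *Gja1* (0.86), *Ttc32* (0.84) and *Palmd* (0.83), and for *Abca1* *Fnip1* (0.92), *Gigyf1* (0.85) and *Erbin* (0.83). *Scarb1* was most like *Flt1* (0.87), *Cmtm8* (0.87) and *Six3* (0.87), *Vldlr* like *Prdm16os* (0.91), *Baiap2l2* (0.90) and *Fdft1* (0.89), and *Lrp1* like *Ugdh* (0.90), *Loxl1* (0.88) and *Pcolce* (0.84). *Abcg1* was most like *Rnf114* (0.91), *Tm6sf1* (0.90) and *Klhl6* (0.90), and *Lpl* like *Filip1l* (0.88), *Slc8a1* (0.88) and *Bin1* (0.86).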

How the data were processed

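The authors aligned the reads to mm10 with Cell Ranger (version 4.0.0 per the matrix headers). What they deposited are raw counts of UMIs per gene and cell, used here as deposited. Each library is 1 pool. Kept were cells with over 500 UMIs, 200 to 6000 genes, a ratio of log10 genes to log10 UMIs over 0.8 and less than 0.2 of their UMIs from mitochondrial genes. The members and the lists were chosen with earlier results of these data known. All kept cells were clustered with Seurat 5.3.0 (R 4.3.3, sctransform 0.4.2: SCTransform, integration, 40 principal components, resolution 0.1) on 2950 features, without the members, *Serpina3n* and the list genes. A cluster was named when the median log2 level of a marker list, against the median of all clusters, was at least 1, with the next list under 0.75 times it and at least 3 markers detected, unless the cells were shallow and no marker led them. This rule for names was written with the clusters in view and was revised several times. It left 2 of 11 clusters unnamed, led by *Hbb-bs* and *Snhg7os*, and the NK or T-like cluster is led by immunoglobulin genes.

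UMIs were summed with Python 3.11.15, numpy 2.4.6, pandas 2.3.3 and scipy 1.17.1. Levels have exact Poisson, shares Clopper-Pearson and ratios exact conditional binomial 95% intervals, all of counting error only. With 1 library per group no test was made, and a gene is said to pass 1.5-fold when it did so with at least 100 UMIs over both groups. A level of 0 was bounded by 3 UMIs. Named were the members, list genes past 1.5-fold (up to 6 per list and comparison) and the 3 genes most like each member. Some list genes are counted but not reported here by name. For doublets, Scrublet scores (scanpy 1.11.5) were used. Its own threshold called 9.62% of Control and 0% of Dox cells and so failed for Dox, and the highest scores up to 0.8% per 1000 cells stood in as an alternative. The ratio and its interval were run on simulated counts that held counting error only. Those counts had no spread between cells, mice or libraries, so that they say nothing about it. Alternatives concerned the filters, the choice of RPE cells, the *Serpina3n* and fold thresholds, scaling, thinning and clustering. Positions are from GENCODE M21 and promoters from RefSeq, since the annotation version behind the files is not given in the sources used here. Plots were made in matplotlib 3.10.9.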

Additional observations from a re-analysis of the deposited data

Results flagged for a closer look

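*Enpp2* differed between Dox and Control by over 1.5-fold upwards in some groups of cells and downwards in 1. In C1q-high cells of the macrophage-like cluster it had 169 CPM in Dox against 112 CPM in Control (log2 ratio 0.59), with *Rpe65* RNA at 0.42. In the unnamed cluster led by *Hbb-bs*, which finer clustering divided into erythroid-like and melanocyte-like cells, it was higher in Dox (791 against 393 CPM, log2 ratio 1.01), where *Rpe65* RNA was higher too (1446 against 520 CPM, log2 ratio 1.48). The mix of the cluster differed between the libraries, with 40.2% of its UMIs from erythroid-like cells in Dox and 16.2% in Control, and within erythroid-like and melanocyte-like cells the *Enpp2* log2 ratio was 0.41, short of 1.5-fold, and 0.65. The cells of the RPE-like cluster below the *Rpe65* limit were 89 in Dox and 86 in Control, with a median of 3710 and 3625.5 UMIs. Their median mitochondrial share was 11.2% and 12.9%, against 2.44% and 2.45% in RPE cells. In them *Enpp2* was lower in Dox (532 against 929 CPM, log2 ratio -0.80). *Rpe65* was at 714 CPM in Dox and 771 CPM in Control, but the limit itself holds it down in both, so that it is no reference here. *Serpina3n* was at 4232 CPM in Dox and 232 CPM in Control. The difference between these groups was not tested.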

How the results depend on the processing

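Counting error is the only error known here, since there is no replicate. No paired analysis was possible because each group has 1 library. The highest level in RPE cells held for *Pltp*, *Enpp2* and *Vldlr* under all 10 alternatives. Under Leiden clusters without integration, *Abca1* in Dox was highest in melanocyte-like cells led by *Snhg7os* (112 CPM) instead of the macrophage-like cluster, and *Lrp1* in another fibroblast-like cluster. *Enpp2* and *Pltp* were lower past 1.5-fold in Serpina3n-high cells of both libraries under every alternative except, for *Pltp* in Dox, the 2-fold threshold, under which 1 member in Dox and 2 in Control remained. Of the comparisons of Dox with Control in which 0 members passed 1.5-fold, those over all RPE cells had 1 (*Lpl*) without the limits on genes and complexity and with at least 20 UMIs per gene, and those over Serpina3n-low cells 2 (*Lpl* and *Abcg1*) with at least 20 UMIs. Those over Serpina3n-high cells had 1, *Enpp2*, without those limits, with a *Serpina3n* threshold of 2000 CPM and with cells thinned to 5000 UMIs, and 1, *Vldlr*, without the highest doublet scores. The *Abca1* log2 ratio in Control turned to -0.54 when cells were thinned to 5000 UMIs. Of 543 values of single members under alternatives, 453 lay within the counting interval of the reported value, and the others outside it. In 31 the sign changed. The *Abca1* value above was the only one of these whose reported ratio had passed 1.5-fold. The other 30 concerned 9 ratios of Dox over Control that were short of 1.5-fold. These were *Pltp*, *Abca1* and *Lrp1* in Serpina3n-low cells, and all members with at least 100 UMIs but *Enpp2* in Serpina3n-high cells. The latter rest on 15 Control cells, and their reported log2 ratios ran from -0.11 (*Lrp1*) to 0.37 (*Vldlr*). Among them, *Abca1* went from 0.21 to -0.43 with a *Serpina3n* threshold of 2000 CPM, and *Lrp1* from -0.11 to 0.25 without the highest doublet scores. Restricting RPE cells to the RPE-like cluster with few fibroblast UMIs, or taking that cluster alone, was chosen after seeing the data. The few cells that the looser filter adds outside the RPE have no cluster and were left out.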
